A study of Mus musculus with 4 samples.

Results

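The circadian clock genes described here are Per1, Per2, Per3, Cry1, Cry2, Arntl, Nr1d1, Nr1d2, Dbp and Tef. They were chosen by name, and all 10 were found in the annotation of the array. They were read by 22 of its 45037 probe sets, and the array reads 18193 genes in all. A probe set is the group of probes that gives 1 signal for 1 transcript region. Kidney RNA was measured in 4 groups of male C57Bl/6 mice. Wild-type mice had either a sham operation or renal blood flow stopped for 60 min and then restored for 24 h (ischemia-reperfusion), and mice labelled Tet2KO had the same pair of treatments. Housing was specific-pathogen-free in all groups. Every group is 1 array that holds RNA pooled from 3 mice, so no spread between mice can be given and no comparison has a test. The allele, any Cre driver, the age of the mice, the lighting schedule and the hours of surgery and of kidney collection are not given in the sources used here.

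The clock is a loop of transcription and repression that runs with a daily period in nearly every cell of the kidney. Arntl (also called Bmal1) and its partner Clock activate the Per and Cry genes, whose proteins return to block that activation. Arntl and Clock also activate Nr1d1 and Nr1d2, which encode the REV-ERB repressors of Arntl, and Dbp and Tef, which encode PAR bZIP factors that carry the rhythm to other genes. Arntl therefore peaks at a time of day when Dbp and the REV-ERB genes are low. In kidney the loop is known to time the handling of sodium and water.

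The DNA elements through which the loop works are the E-box (CACGTG) bound by Arntl with Clock, its variant E'-box (CACGTT), the D-box (TTATGTAA or TTACGTAA) bound by Dbp and Tef, and the half-site AGGTCA bound by REV-ERB and ROR proteins. These letters were searched on both strands of the 250 bases before each gene start in the RefSeq promoter table of build GRCm38.p6, and no motif contains another. The table held 12 starts for 9 of the 10 genes. The stretches printed here carry the motifs of 5 of these genes, including those with the widest differences that hold a match, and are written 5′ to 3′ in the direction of the gene, with the matches in capitals.
Per3 (chr4:151044791-151044895, minus strand, 230 to 126 bases before the start): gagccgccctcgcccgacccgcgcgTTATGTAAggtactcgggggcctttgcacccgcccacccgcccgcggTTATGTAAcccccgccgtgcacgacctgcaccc
Tef, first start (chr15:81802521-81802576, plus strand, 152 to 97 bases before the start): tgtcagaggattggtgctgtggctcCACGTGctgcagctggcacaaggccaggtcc
Per1, first start (chr11:69098758-69098842, plus strand, 191 to 107 bases before the start): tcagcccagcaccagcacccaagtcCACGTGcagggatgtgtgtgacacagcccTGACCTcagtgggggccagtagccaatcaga
Nr1d1 (chr11:98775378-98775430, minus strand, 53 to 1 bases before the start): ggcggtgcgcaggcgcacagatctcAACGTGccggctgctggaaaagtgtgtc
Cry1 (chr10:85185084-85185158, minus strand, 104 to 30 bases before the start): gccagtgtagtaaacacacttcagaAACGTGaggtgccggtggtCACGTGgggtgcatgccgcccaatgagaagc

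Per3 holds 2 D-boxes, a motif found in 0.931% of the 32851 windows of that length in the table. Per1 and Cry1 hold 1 E-box each and Tef 1 before each of its 2 starts, against 6.02% of all windows. An E'-box stands before Cry1, Cry2 and Nr1d1, against 3.85% of all windows, and in the capitals above it is read from the other strand as AACGTG. The half-site stands before Per1 and Nr1d2, against 14.0% of all windows, and in Per1 it is read from the other strand as TGACCT. The windows of Dbp and Arntl hold none of these letters. A match describes the sequence and is not evidence of binding in these kidneys.

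**Figure D1:**
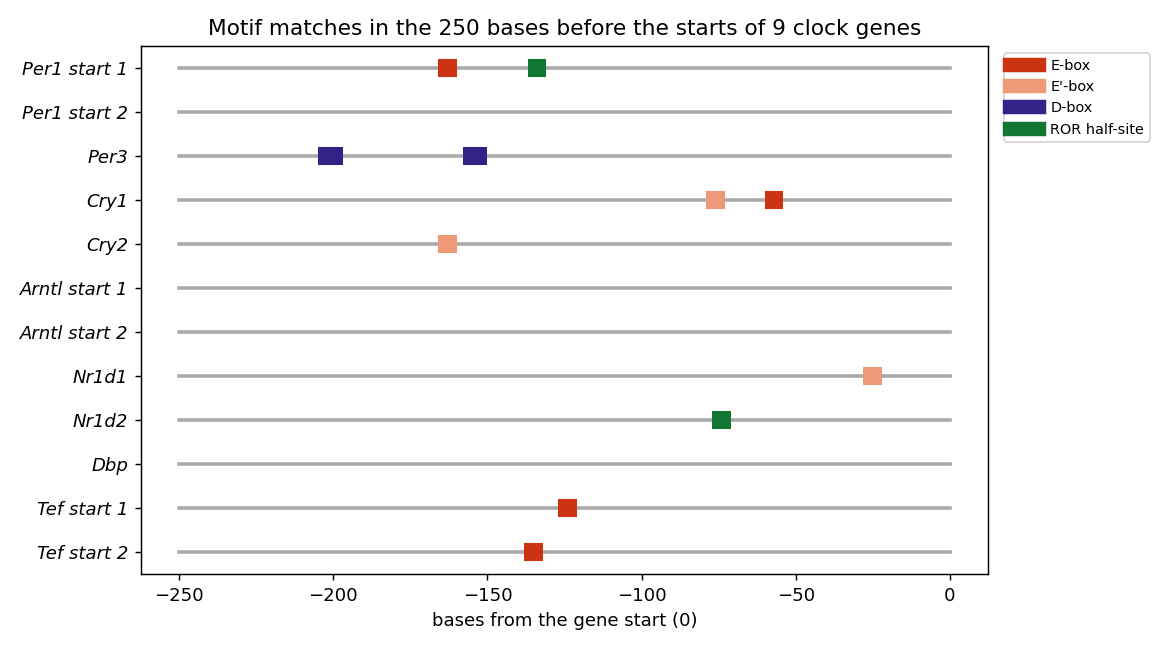
Motif matches in the 250 bases before each start of the 9 genes in the promoter table; the horizontal axis is the distance in bases from the gene start, each grey line is 1 start, and coloured blocks are matches. Per3 is the only one of the 9 with a D-box, and Dbp and Arntl have no match.

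The values are log2 signals, and the text calls a signal low if it is under a floor of 5.72, the 40th percentile of all signals. The Tet2KO ischemia-reperfusion array stood apart: over all probe sets it correlated with the other 3 arrays at r between 0.963 and 0.978, while the sham arrays correlated with each other at 0.993 (45037 probe sets). The 2 probe sets of Tet2 itself had 9.87 and 10.25 in Tet2KO sham against 9.96 and 9.84 in wild-type sham, log2 ratios of -0.09 and 0.41. After ischemia-reperfusion they had 8.74 and 8.60 against 9.16 and 9.30 in wild type, log2 ratios of -0.41 and -0.70. Where these probe sets lie relative to the deletion is not known here, so these signals do not check the labels and the groups are called Tet2KO-labelled. Of the kidney markers Slc34a1, Lrp2, Umod, Slc12a1, Slc12a3 and Aqp2, every one was over the floor in every array, with signals from 10.74 to 14.52. Fat markers differed between the arrays: their summed linear signal over 6 genes was 7001 in wild-type sham and 9580 in Tet2KO-labelled ischemia-reperfusion, but 641 in wild-type ischemia-reperfusion and 1478 in Tet2KO-labelled sham, where 5 of the 6 were low. Adipoq, which defines fat cells, had log2 signals of 10.11 and 9.31 in the first pair and was low, at 4.46 and 4.19, in the second. Fabp4 had the highest signals of the 6, at 12.22 and 13.04 in the first pair, so it weighed most in the sum. In that pair Cidec had 6.33 and 8.36, Cidea 9.68 and 6.82 and Ucp1 7.51 and 5.70. Lep was low in every array. The sum therefore does not rank the first pair by fat content.

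The clock genes differed mainly in 1 array, Tet2KO-labelled ischemia-reperfusion. There the output genes Dbp and Tef and, on their strongest probe sets, the repressors Per2 and Per3 were lower than in the other arrays. Arntl, on its strongest probe set, and Per1 and Nr1d1 were higher there. In wild type the log2 ratios of ischemia-reperfusion to sham lay between -0.51 and 0.52 for all 10 on their strongest probe sets, with the floor applied. Without the floor that of Cry1 was 0.60. Other probe sets had lower ratios in wild type, with -0.87 for Nr1d2, -0.80 and -0.61 for Per3 and -0.53 for Tef. Each value is 1 array of pooled RNA, and in bulk tissue fewer cells of a type and less RNA per cell cannot be told apart. Of the 22 probe sets, 14 had their lowest signal in the Tet2KO-labelled ischemia-reperfusion array, against 3 in the wild-type and 4 in the Tet2KO-labelled sham array and 1 in wild-type ischemia-reperfusion (probe sets of 1 gene share its transcripts). Over all 45037 probe sets 36.2% had their lowest signal in that array. A gene's value below is that of its probe set with the highest mean signal (suffix _x_at only where there was no other).

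**Figure D2:**
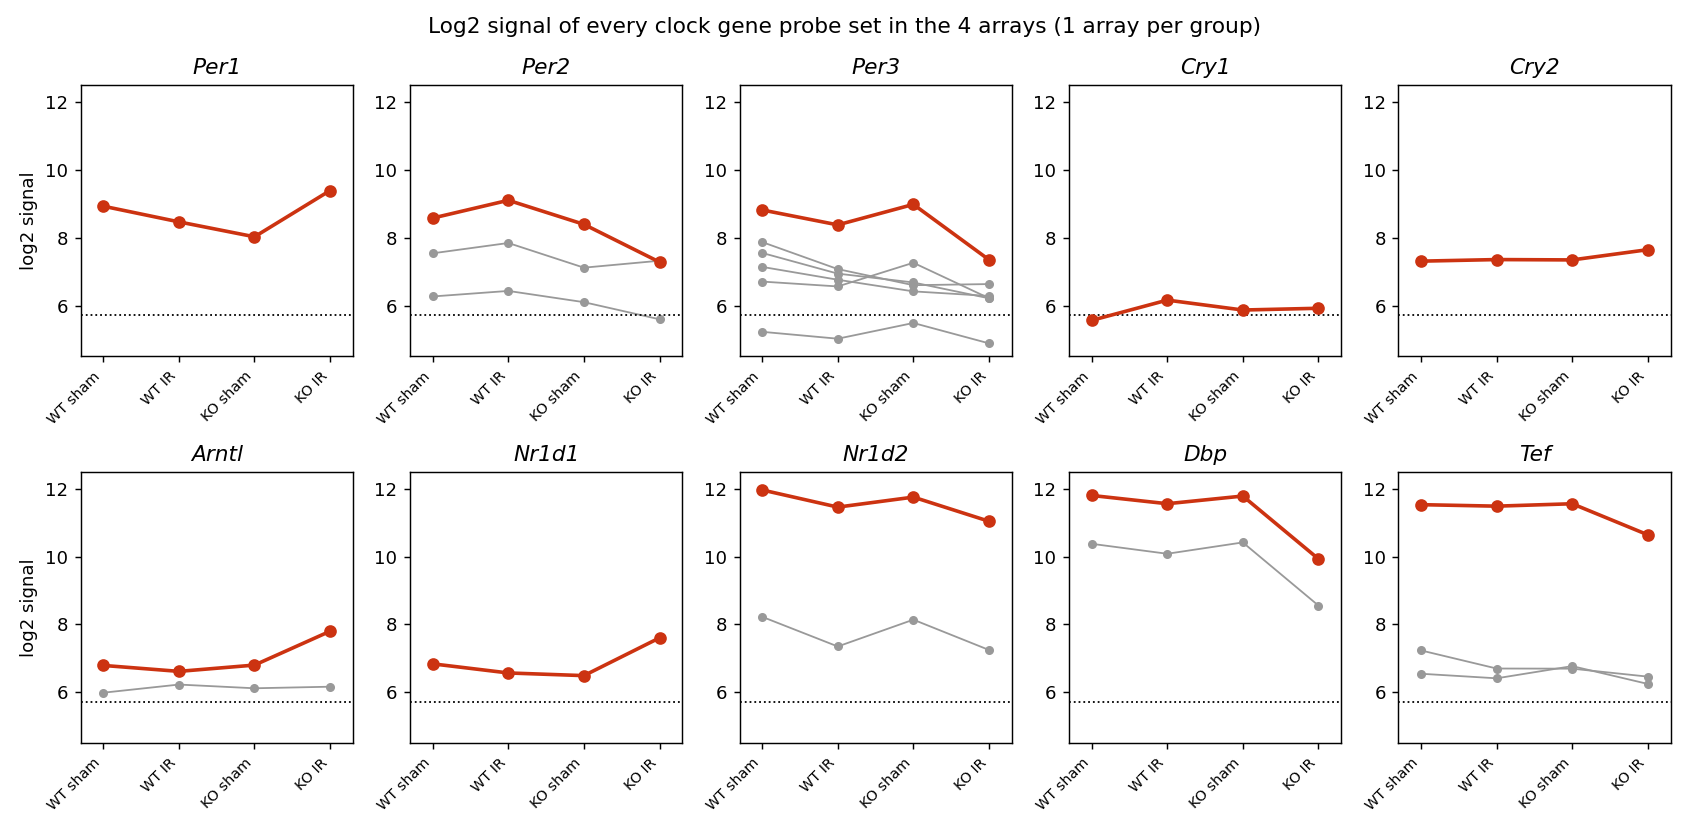
Log2 signal (vertical axis) of all 22 probe sets of the 10 clock genes in the 4 arrays (horizontal axis; KO stands for Tet2KO-labelled, IR for ischemia-reperfusion); each point is 1 array, red is the probe set with the highest mean, grey the others, and the dotted line is the floor. Dbp is at 11.78 in Tet2KO-labelled sham and 9.93 after ischemia-reperfusion, with its other probe set in parallel, while Per2, Per3, Arntl and Tef have probe sets that do not run in parallel.

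Dbp, the PAR bZIP factor with one of the strongest daily rhythms in mouse tissues, gave a log2 signal of 11.80 (wild type, sham), 11.56 (wild type, ischemia-reperfusion), 11.78 (Tet2KO-labelled, sham) and 9.93 (Tet2KO-labelled, ischemia-reperfusion). Signals are given in this order of arrays from here on. The first 3 arrays lay close together and the last lay well under them. It was thus 3.61-fold lower after ischemia-reperfusion in the Tet2KO-labelled pair and 1.18-fold lower in wild type. The other Dbp probe set, with 10.38, 10.08, 10.42 and 8.56 gave log2 ratios of -1.86 and -0.29. For scale, log2 ratios of probe sets of the same gene differed with an SD of 0.39 in the Tet2KO-labelled pair and 0.24 in the wild-type pair. This SD mixes measurement error with differences between transcript regions. It leaves out error shared by a whole array and differences between mice.

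Tef, the second PAR bZIP factor, had 11.53, 11.48, 11.56 and 10.64. Again only Tet2KO-labelled ischemia-reperfusion was low relative to the rest, by 1.89-fold against its own sham array. The other Tef probe sets did not show this size: their log2 ratios in the Tet2KO-labelled pair were -0.23 and -0.53. One of them, with 7.23, 6.70, 6.70 and 6.46, was highest in wild-type sham and the other, with 6.55, 6.41, 6.77 and 6.25, in Tet2KO-labelled sham. All 3 Tef probe sets had their lowest signal in Tet2KO-labelled ischemia-reperfusion. Hlf, the third PAR bZIP gene and the only one outside the 10, had 10.14, 10.09, 10.09 and 7.57, and its other probe set 9.76, 9.78, 9.95 and 6.89. Its log2 ratio in the Tet2KO-labelled pair was -2.52, below that of every one of the 10, and -0.05 in wild type.

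Per2, a repressor that binds Cry proteins, had 8.58, 9.10, 8.39 and 7.28. The ischemia-reperfusion arrays were the highest and the lowest of the 4, a difference of 3.53-fold. Within the pairs Per2 was 1.44-fold higher in wild type and 2.16-fold lower in the Tet2KO-labelled mice. A second Per2 probe set, with 6.27, 6.43, 6.10 and 5.60, kept this order of arrays with smaller differences. The third, with 7.54, 7.84, 7.12 and 7.32, was 0.20 higher rather than lower on the log2 scale in the Tet2KO-labelled pair, so the direction of Per2 there depended on the probe set.

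Per3, which is not needed for the loop to run but follows its rhythm strongly, had 8.82, 8.38, 8.98 and 7.35. It was 3.10-fold lower in the Tet2KO-labelled pair and 1.36-fold lower in wild type. Its 6 probe sets showed 2 patterns. In the one just given and in 2 further probe sets, with 6.71, 6.56, 7.26 and 6.22 and with 5.23, 5.02, 5.49 and 4.89, Tet2KO-labelled sham was highest and Tet2KO-labelled ischemia-reperfusion lowest; the last of these was under the floor in every array. In the other 3, wild-type sham was highest, with 7.87, 7.55 and 7.14, and the log2 ratios in the Tet2KO-labelled pair were 0.03, -0.47 and -0.14. These 3 were instead lower in Tet2KO-labelled sham than in wild-type sham, with log2 ratios of -1.27, -0.87 and -0.72.

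Per1, a repressor that is also an early response gene and is induced by glucocorticoids, differed in the other direction from Per2 and Per3. Its only probe set had 8.93, 8.47, 8.03 and 9.39. It was 2.57-fold higher after ischemia-reperfusion in the Tet2KO-labelled pair and 1.38-fold lower in wild type. Part of that difference lay between the sham arrays, where Tet2KO-labelled was 1.87-fold lower than wild type. Against the wild-type sham array, Per1 in Tet2KO-labelled ischemia-reperfusion was only 1.38-fold higher.

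The cryptochromes, the strongest repressors of Arntl with Clock, varied least. Cry1 had 5.56, 6.16, 5.87 and 5.92, all close to the floor, and was at least 1.36-fold higher after ischemia-reperfusion in wild type. In the Tet2KO-labelled pair its log2 ratio was 0.05. Cry2 had 7.31, 7.35, 7.34 and 7.65, a range of 0.34 over the arrays, with its highest signal in Tet2KO-labelled ischemia-reperfusion. Each was read by 1 probe set.

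Arntl, the activator, had 6.79, 6.62, 6.80 and 7.80. The Tet2KO-labelled ischemia-reperfusion array stood above the other 3, with a log2 ratio of 0.997 to its sham array, just under 2-fold, and 2.27-fold above wild-type ischemia-reperfusion. In wild type Arntl was 1.13-fold lower after ischemia-reperfusion. The second Arntl probe set did not show this: it had 5.99, 6.23, 6.12 and 6.16, with a log2 ratio of 0.05 in the Tet2KO-labelled pair. This one lay close to the floor in every array.

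The REV-ERB genes, whose products repress Arntl, differed from each other. Nr1d1 had 6.84, 6.57, 6.49 and 7.60, and was 2.16-fold higher after ischemia-reperfusion in the Tet2KO-labelled pair, with a log2 ratio of -0.27 in wild type. With a floor at the 60th percentile its log2 ratio of 1.11 became 0.62, and between the ischemia-reperfusion arrays quantile normalization took 1.03 to 0.98, under 2-fold. Nr1d2 had 11.96, 11.46, 11.75 and 11.04 and was lower after ischemia-reperfusion in both genotypes, by 1.42-fold in wild type and 1.64-fold in the Tet2KO-labelled mice. Its second probe set, with 8.22, 7.35, 8.14 and 7.25, gave log2 ratios of -0.87 and -0.89. Nr1d2 was the gene of the 10 whose responses were closest in the 2 genotypes, with a difference of -0.21 on the log2 scale. In the RefSeq gene table the ends of Nr1d1 and of its neighbour Thra, a thyroid hormone receptor gene, overlap, and where the single Nr1d1 probe set lies was not known here. The 3 Thra probe sets had log2 ratios of -0.69, -0.16 and 0.20 in the Tet2KO-labelled pair, where Nr1d1 had 1.11. Between the ischemia-reperfusion arrays they had -0.12, 0.51 and 0.41, where Nr1d1 had 1.03. The part of Thra in the Nr1d1 signal was not tested.

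**Figure D3:**
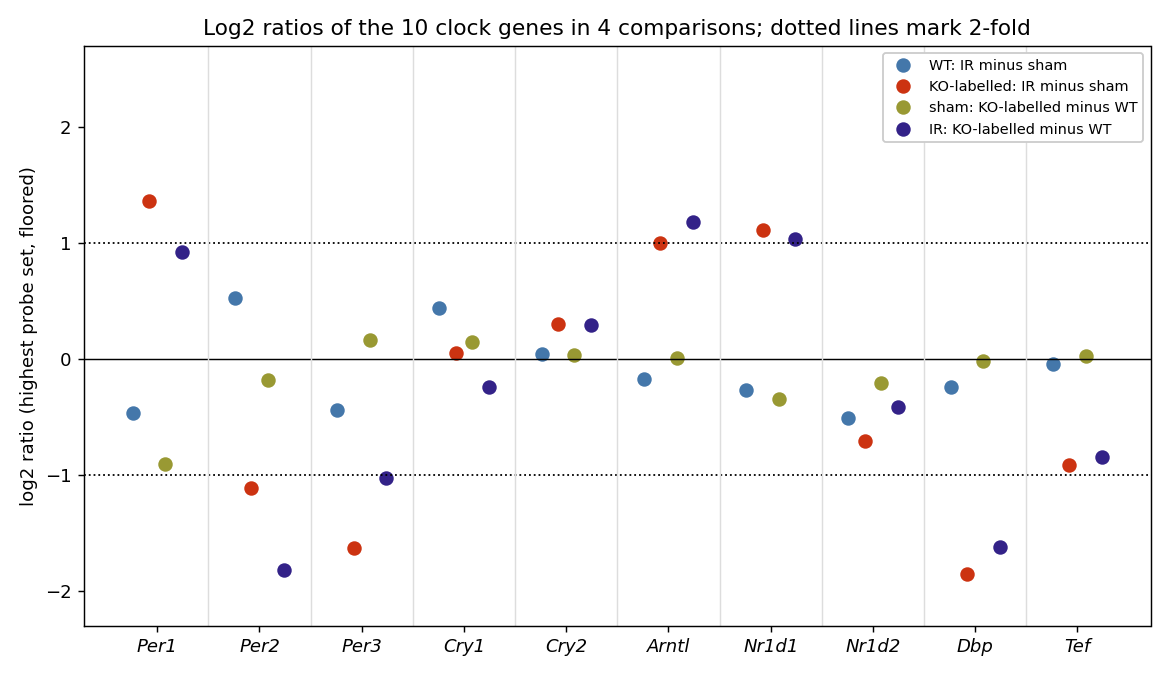
Log2 ratio (vertical axis) of each clock gene (horizontal axis) in 4 comparisons; each point is a ratio of 2 arrays, so there are no error bars, and the dotted lines mark 2-fold. Each gene is read from its strongest probe set, with the floor applied. The ratios of the wild-type pair lie between -0.51 and 0.52 for all 10 genes, and those of the Tet2KO-labelled pair between -1.85 and 1.36.

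Counted at 2-fold or more, 0 of the 10 clock genes were higher and 0 lower after ischemia-reperfusion in wild type, where 2.06% of 13531 measured genes were higher and 2.18% lower. In the Tet2KO-labelled pair 2 were higher, Per1 and Nr1d1, and 3 lower, Per2, Per3 and Dbp, where 6.06% of 13600 genes were higher and 6.89% lower. Between the sham arrays 0 were higher and 0 lower, against a background of 0.186% and 0.846%. At 1.5-fold 5 were lower in the Tet2KO-labelled pair, where 14.5% of genes were, and 1, Per1, between the sham arrays, where 2.43% were. Between the ischemia-reperfusion arrays 2 were higher in the Tet2KO-labelled one, Arntl and Nr1d1, and 3 lower, Per2, Per3 and Dbp, against 3.68% and 3.99% of 13492 genes. These comparisons share arrays, and Tet2KO-labelled ischemia-reperfusion is in both that gave counts above 0 at 2-fold.

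The difference between the responses of the genotypes uses all 4 arrays. It was 2-fold or more upward for Per1, Arntl and Nr1d1, with differences of 1.82, 1.17 and 1.38 on the log2 scale, against 4.75% of 13808 genes. It was 2-fold or more downward for Per2, Per3 and Dbp, with -1.64, -1.19 and -1.61, against 4.77%. Tef followed with -0.87. Set against wild-type sham in place of its own sham array, Tet2KO-labelled ischemia-reperfusion had 1 clock gene higher at 2-fold, Arntl at 2.01-fold, where 6.38% of 13595 genes were higher. It had 3 lower, Per2 at 2.46-fold, Per3 at 2.76-fold and Dbp at 3.65-fold, where 6.61% were lower. Nr1d1 was then 1.70-fold and Per1 1.38-fold higher.

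**Figure D4:**
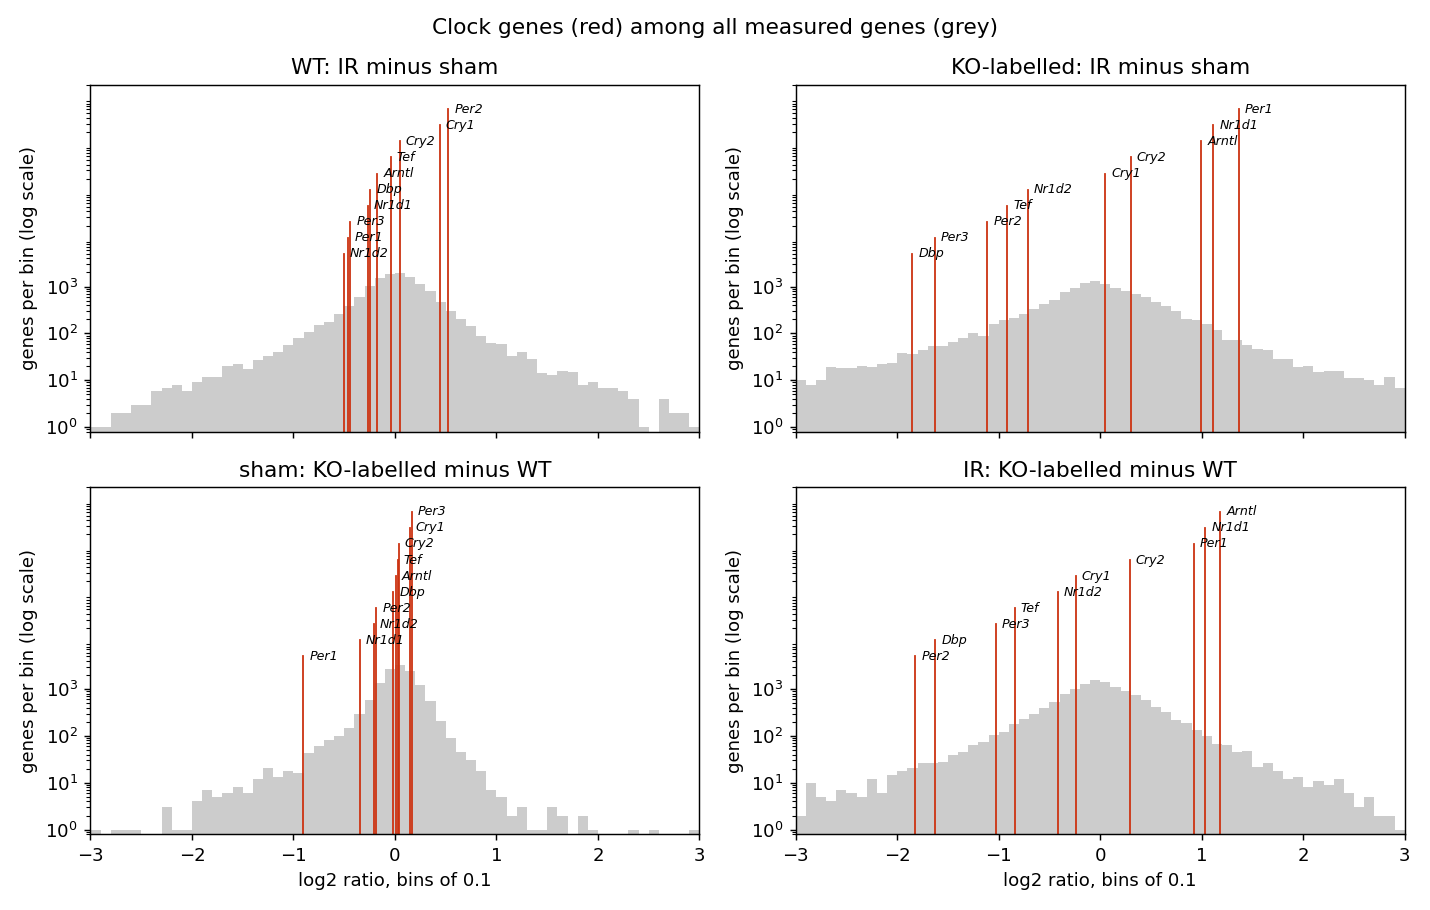
Number of genes per bin of 0.1 in log2 ratio (vertical axis, log scale) against the log2 ratio (horizontal axis, drawn from -3 to 3) for all measured genes in grey, with the 10 clock genes as red lines whose height has no meaning, in 4 comparisons of 2 arrays each. In the wild-type pair and between the sham arrays the clock genes lie within 2-fold of 0, and in the panels with Tet2KO-labelled ischemia-reperfusion they spread to both sides.

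Of 19 other genes of the clock, 16 were measured. In wild type 0 of them differed by 2-fold, where 2.06% of all measured genes were higher and 2.18% lower. In the Tet2KO-labelled pair 2 were higher and 1 lower, where 6.06% and 6.89% of all measured genes were. The one lower was Hlf. Higher were Bhlhe40, an E-box repressor, with 10.73, 10.82, 9.93 and 11.05, and Csnk1e, a kinase that marks Per proteins for degradation, with 7.95, 7.74, 7.54 and 8.64 and a second probe set with 7.45, 7.15, 7.17 and 8.78. Bhlhe40 had its lowest signal in Tet2KO-labelled sham, and against wild-type sham it was 1.25-fold higher. Another Csnk1e probe set, low in every array, had a log2 ratio of 0.19. Csnk1d, the related kinase, had a log2 ratio of 0.47 in the Tet2KO-labelled pair and 0.24 in wild type on the probe set used. Its other 4 probe sets gave 0.51, 0.63, 0.97 and 1.64 in the Tet2KO-labelled pair, and the last of these had 7.83, 8.31, 7.78 and 9.42.

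The partners and relatives of Arntl stayed under 2-fold on the probe sets used. Clock had 9.20, 9.63, 9.16 and 9.80, higher after ischemia-reperfusion in both genotypes by 0.43 and 0.65 on the log2 scale, although 2 of its other 3 probe sets differed by at most 0.07. Npas2, which can stand in for Clock, had a log2 ratio of 0.12 in the Tet2KO-labelled pair on the probe set with the higher mean, while its other probe set had 4.95, 5.46, 5.36 and 7.28 and was over the floor in Tet2KO-labelled ischemia-reperfusion alone. Arntl2 had log2 ratios of 0.09 in wild type and -0.09 in the Tet2KO-labelled pair, and its other probe set had 0.46 and 0.34.

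Among genes that act on Arntl or on D-boxes, Nfil3, a repressor that competes with Dbp for the D-box, had 6.28, 6.34, 6.44 and 6.98. It was highest where Dbp, Tef and Hlf were lowest. Rora, an activator of Arntl, had log2 ratios of -0.14 in wild type and 0.20 in the Tet2KO-labelled pair, and its 9 probe sets went in both directions. Ciart, a repressor of Arntl with Clock, had 8.10, 7.69, 7.55 and 7.02. Bhlhe41 had 0.19, Fbxl21 -0.23, Fbxw11 -0.51 and Btrc -0.38 as log2 ratios in the Tet2KO-labelled pair; the last 3 encode F-box proteins that act on Cry or Per proteins, and other probe sets of Fbxw11 and Btrc went in both directions. Timeless and Tipin, which also act in DNA replication, were higher after ischemia-reperfusion in both genotypes, by 0.94 and 0.72 on the log2 scale in wild type and by 0.56 and 0.46 in the Tet2KO-labelled pair.

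Of 8 known outputs of the clock, 0 were higher and 0 lower at 2-fold in wild type. In the Tet2KO-labelled pair 1 was higher and 1 lower, where 6.06% and 6.89% of all measured genes were. Usp2, a deubiquitinase with a strong daily rhythm, had 11.48, 11.35, 11.54 and 10.26, which puts the same array lowest as for Dbp. Edn1, which encodes endothelin and inhibits sodium uptake in the collecting duct, had 6.01, 6.28, 5.94 and 7.36. Nampt, which makes NAD and is activated through E-boxes, had 10.46, 11.14, 10.51 and 9.84, with the ischemia-reperfusion arrays at opposite ends as for Per2. The median log2 ratio of the 8 was 0.04 in wild type and -0.16 in the Tet2KO-labelled pair. Of the PAR bZIP targets listed, 2 of 6 were measured, and both were higher in the Tet2KO-labelled pair while Dbp, Tef and Hlf were lower: Alas1, the first enzyme of haem synthesis, by 3.69-fold and Pdxk, which activates vitamin B6, by 2.14-fold. Pdxk was also 2.22-fold higher in wild type.

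**Figure D5:**
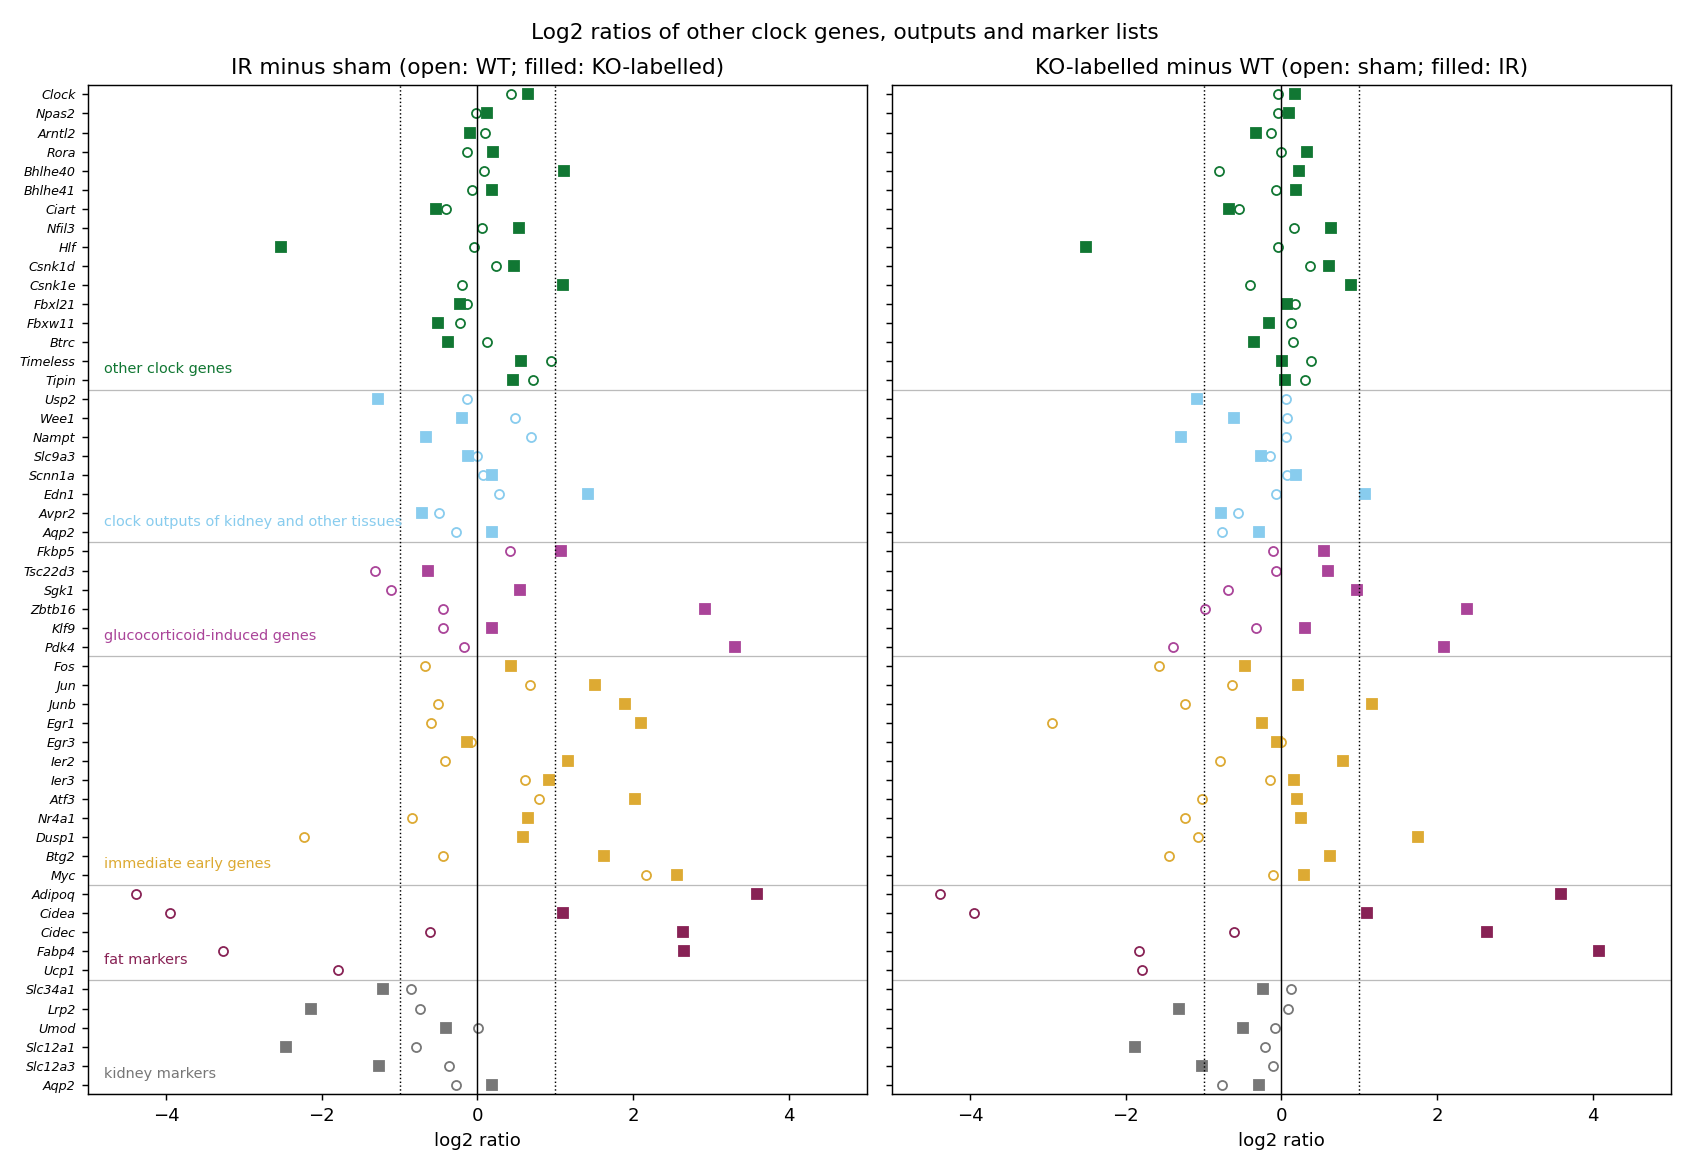
Log2 ratios (horizontal axis) of the measured genes of 6 lists (vertical axis, coloured by list); on the left ischemia-reperfusion over sham, open for wild type and filled for Tet2KO-labelled, on the right Tet2KO-labelled over wild type, open for sham and filled for ischemia-reperfusion. Each point is a ratio of 2 arrays and dotted lines mark 2-fold; Hlf has the lowest ratio among the other clock genes, and 4 of the 5 fat markers lie at 2-fold or more below 0 in wild type and all 4 measured in the Tet2KO-labelled pair at 2-fold or more above 0.

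Markers of other cells and of other stimuli differed along with some clock genes. With signals set to the floor, 4 of 5 measured fat markers had both wild-type sham and Tet2KO-labelled ischemia-reperfusion above both other arrays, an order found in 8.45% of 13808 genes. The other, Ucp1, was over the floor in wild-type sham alone. Of the 10 clock genes, 2 had that order, Per1 and Nr1d1. Immediate early genes, which respond within minutes to stimuli including the handling of tissue, had it in 5 of 12. In the sham comparison 7 of these 12 were lower at 2-fold in the Tet2KO-labelled array, with Egr1 at 11.45 against 8.51, and in the Tet2KO-labelled pair 7 were higher. Their median log2 ratio was -0.43 in wild type and 1.34 in the Tet2KO-labelled pair. Genes induced by glucocorticoids had that order in 4 of 6, with medians of -0.44 and 0.81, and 3 of them were higher at 2-fold in the Tet2KO-labelled pair. Of these, Zbtb16 had 7.23, 6.80, 6.25 and 9.18, and Pdk4 had 9.53, 9.36, 8.14 and 11.45. Sgk1, Klf9 and Tsc22d3 had log2 ratios of 0.55, 0.19 and -0.64 in the Tet2KO-labelled pair. Tsc22d3 was also lower in wild type, with -1.31. The part of fat, of early gene induction and of glucocorticoids in the values of Per1 and Nr1d1 was not tested.

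Dbp, Tef and Arntl did not have that order: on their strongest probe sets the 2 sham arrays differed by at most 0.03 on the log2 scale. The part of fat in their values was not tested. Of the 6 kidney markers 4, Slc34a1, Lrp2, Slc12a1 and Slc12a3, were lower at 2-fold in the Tet2KO-labelled pair and 0 in wild type, with medians of -1.24 and -0.55 on the log2 scale over the 6. Umod was 1.32-fold lower and Aqp2 1.14-fold higher in the Tet2KO-labelled pair. Of the 4 leukocyte markers measured in the Tet2KO-labelled pair, 2 were higher at 2-fold (S100a8 and Cd68), 1 was lower (Ptprc, 8.59 and 7.38) and Cd3e had a log2 ratio of -0.28. The summed linear signal of the 5 leukocyte markers on the array was 576, 721, 689 and 1632 in the 4 arrays. These 5 include Itgam, which was low in every array. S100a8 alone went from 5.09 to 10.03 on the log2 scale in the Tet2KO-labelled pair. The part of these markers in the lower Dbp, Tef, Hlf and Per3 signals was not tested. Adrenal markers, which would come from a gland beside the kidney, had median log2 ratios between -0.06 and 0.10 over the 4 measured genes in all 5 comparisons, with 3 or 4 of 7 under the floor in each array.

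Over the 4 arrays, the genes whose pattern was most like that of Dbp, the clock gene with the widest range, were Ints12, 1700029J07Rik, Cubn, Nlrp6 and Pou3f3. Likeness was the root mean square difference of signals centred per gene, and it lay between 0.0205 and 0.0307 on the log2 scale for these 5 of 13807 genes. Cubn, the endocytic receptor cubilin of the proximal tubule, had 12.83, 12.67, 12.86 and 11.01. For Arntl the 5 closest were Cxxc5, Fstl1, Ramp2, Wbp1l and Prr5, at 0.024 to 0.034. With 4 arrays many genes share a pattern, and no other clock gene was among either 5.

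The hours at which the kidneys were collected are not given in the sources used here. With 1 array per group, the time of collection cannot be told apart from genotype and treatment, and its part in these values was not tested. On the strongest probe sets, Arntl and Nfil3 had their highest signal of the 4 arrays in Tet2KO-labelled ischemia-reperfusion. Dbp, Tef, Hlf, Per2, Per3, Ciart and Nr1d2 had their lowest signal there. The second Arntl probe set was instead highest in wild-type ischemia-reperfusion, at 6.23 against 6.16. A Per2 probe set (7.12 against 7.32) and a Per3 probe set (6.60 against 6.63) were lowest in Tet2KO-labelled sham. In the usual daily rhythm Arntl and Nfil3 are high when Dbp is low. Nr1d1, which is usually low when Arntl is high, was highest in Tet2KO-labelled ischemia-reperfusion too, as was Per1. Between the sham arrays, on the probe sets used, Dbp, Tef, Arntl, Hlf, Clock and Cry2 differed by at most 0.05 on the log2 scale. Per1, Bhlhe40, Ciart, Csnk1e and Nr1d1 had log2 ratios of -0.90, -0.80, -0.55, -0.40 and -0.35, Tet2KO-labelled over wild type. Timeless, Csnk1d and Tipin had 0.38, 0.37 and 0.31. The other Csnk1d probe sets had 0.23, 0.15, -0.03 and -0.05, and the first of these had the highest signals.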

How the data were processed

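The authors deposited log2 signals of 45037 probe sets for 4 arrays, 1 column each; the unit was read from the values, which run from 2.51 to 14.97. Per the submitters' processing notes MAS5 was used, with no version or scaling given, and the scaling between arrays is unknown. RNA was pooled from 3 mice per array, per the labels. Probe sets were named through the annotation of the array: 34945 had 1 gene symbol, 932 several (not used) and 9160 were not listed. A gene was read from its probe set with the highest mean signal (suffix _x_at only where there was no other). Signals under the 40th percentile (5.72, linear 52.8) were set to it for ratios, and signals of single arrays are printed as deposited. A gene was measured if 1 array of the comparison reached the floor. Ratios are differences of log2 signals; with 1 array per group no test was made. A ratio of 2-fold or more was counted. Sequences and gene order came from RefSeq tables (GRCm38.p6). All 10 clock genes are named; of other lists, genes past 2-fold with the largest ratios, and for likeness the 5 closest genes. Alternatives were other floors, a pseudocount, quantile normalization, median centring, the median over probe sets, plain _at probe sets, a 1.5-fold threshold and the other sham array. Counting was tested on simulated data. Python 3.11.15, numpy 2.4.6 and pandas 2.3.3 were used. The clock genes, lists and alternatives were chosen with earlier results of these data known.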

Additional observations from a re-analysis of the deposited data

Results flagged for a closer look

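For 4 of the 10 clock genes the response to ischemia-reperfusion had opposite signs in the genotypes. The share of all genes with opposite signs was not computed, so this count is not read as particular to clock genes. Over all measured genes 7108 ratios were above 0 and 6406 below in wild type, and 6552 and 7026 in the Tet2KO-labelled pair. The difference, Tet2KO-labelled minus wild type on the log2 scale, was not tested because each group is 1 array. It was 1.82 for Per1, -1.64 for Per2, 1.17 for Arntl and 1.38 for Nr1d1. The wild-type response was -0.46 for Per1, 0.52 for Per2, -0.18 for Arntl and -0.27 for Nr1d1. Against the sham array of the other genotype the wild-type ratio of Per1 was 0.44 and that of Nr1d1 0.08, the same sign as in the Tet2KO-labelled mice, so the opposite signs of these genes rest on the sham array used. Those of Per2 and Arntl were then 0.71 and -0.19. That of Arntl against its own sham array was smaller than the SD of 0.24 between probe sets of one gene in that pair. The other probe sets gave differences of -0.10 and -0.67 for Per2 and -0.19 for Arntl, and Per1 and Nr1d1 have no other.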

How the results depend on the processing

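Of 406 recomputed log2 ratios of single clock genes, 375 moved by no more than the SD between probe sets of one gene, 27 by more, and 4 changed sign from a ratio past 2-fold. Part of the 375 could not move, so their number does not measure stability. Leaving out the floor, or setting it at the 20th percentile, could not change ratios of the 9 genes over the floor in all arrays. The median over probe sets could not change the 4 genes with 1 probe set. Plain _at probe sets could not change genes already read from one. With the median over probe sets Per2 in the Tet2KO-labelled pair was 0.17, and the Per3 difference of responses 0.10. With plain _at probe sets only, Arntl was -0.063 between the ischemia-reperfusion arrays and its difference of responses -0.19. Dbp kept its sign and stayed past 2-fold in the Tet2KO-labelled pair and between the ischemia-reperfusion arrays under every alternative run, with ratios from -1.87 to -1.79 and from -1.66 to -1.52. With the floor at the 60th percentile the genes higher at 2-fold numbered 1 in the Tet2KO-labelled pair, 0 in Tet2KO-labelled over wild-type ischemia-reperfusion and 1 in the difference of responses, and a pseudocount of 64 in place of the floor gave the same 3 counts. Between the ischemia-reperfusion arrays 1 was higher with quantile normalization, with the median over probe sets and with plain _at probe sets. The median over probe sets left 1 gene lower in the Tet2KO-labelled pair, 1 for the difference and 1 between the arrays of injured kidneys. The share of all genes past 2-fold was not computed under these floor, pseudocount, normalization and probe set settings. Changes in these counts are therefore not read as particular to clock genes. Against the other genotype's sham array 1 gene was higher in Tet2KO-labelled ischemia-reperfusion (6.38% of all genes). At 1.5-fold 5 were lower in the Tet2KO-labelled pair (14.5% of all genes) and 1 between the sham arrays (2.43%). The cause of these changes was not tested, other than that they use other probe sets, floors or controls. Signals near the floor, as for Cry1, Arntl and Nr1d1, limit the size of a ratio that can be seen.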
